A study of Mus musculus with 10 samples.

Results

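Immediate early genes, 10 of them, were followed across mammary tumours of mice of different strain names: Fos, Fosb, Jun, Junb, Egr1, Ier2, Atf3, Dusp1, Btg2 and Zfp36. They were chosen by name, and every probe set that the platform annotation assigns to one of them was taken. That gave 15 probe sets for 10 genes, of 12422 probe sets for 8251 genes on the array. All 10 genes had a probe set that could be tested, 14 of the 15 passed the filter on dim probe sets, and the whole table tested held 9899 probe sets for 7098 genes. No probe set shared between several gene symbols held one of them.

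The study profiled total RNA of mammary tumours from adult female mice, 90 days old, on 10 Affymetrix mg_u74av2 arrays, 1 colour each. All groups carry MMTV-PyMT, a transgene that expresses polyomavirus middle T antigen from a viral promoter active mainly in mammary epithelium. The groups are the strain names in the array titles, FVBn with 1 array and ILn, LP, MOLF and NZB with 2 arrays each, lettered A and B, while the strain label reads FVB/Nj for every array. Titles call these arrays a mix without saying what was mixed, 1 further array has no strain name, and separate animals are not stated for arrays A and B, so a p-value covers only array-to-array spread, possibly technical.

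Immediate early genes are transcribed within minutes of a growth factor, stress or wounding signal, from factors already present in the cell and without new protein synthesis. Serum response factor with its ternary complex partners, and CREB bound at cAMP response elements, carry the signal of the ERK and cAMP pathways to many of their promoters. Several encode transcription factors that switch on later genes, others encode feedback inhibitors of the same pathways, and their mRNAs are short-lived. Cutting and warming of a tissue before its RNA is fixed also induces them, which is why they are read in tumour profiles both for growth signalling and for handling.

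The promoters of 3 members are shown, since their arrays were separated from the rest in 3 different strains: Fos in ILn, Dusp1 in MOLF and Btg2 in LP. RefSeq promoters of GRCm38.p6, from 250 bases before to 50 bases after the start of the gene, matched 8 of the 10 members, all but Egr1 and Ier2. Capitals mark TGACG on either strand, the core of the cAMP response element. The windows are chr12:85473640-85473939 on the plus strand for Fos, chr17:26508423-26508722 on the minus strand for Dusp1 and chr1:134079106-134079405 on the minus strand for Btg2, each written 5′ to 3′ along the gene.
Fos: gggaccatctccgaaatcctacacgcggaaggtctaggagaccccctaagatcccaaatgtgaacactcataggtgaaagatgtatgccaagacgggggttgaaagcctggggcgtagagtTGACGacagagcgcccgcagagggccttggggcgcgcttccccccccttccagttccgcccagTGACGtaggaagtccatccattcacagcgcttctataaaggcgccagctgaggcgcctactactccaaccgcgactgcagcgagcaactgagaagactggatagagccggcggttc
Dusp1: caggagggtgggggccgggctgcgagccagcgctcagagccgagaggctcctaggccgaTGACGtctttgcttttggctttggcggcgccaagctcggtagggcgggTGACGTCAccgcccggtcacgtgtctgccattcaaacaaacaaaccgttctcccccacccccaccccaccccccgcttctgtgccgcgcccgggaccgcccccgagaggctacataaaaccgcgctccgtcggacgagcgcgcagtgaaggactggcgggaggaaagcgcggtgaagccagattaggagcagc
Btg2: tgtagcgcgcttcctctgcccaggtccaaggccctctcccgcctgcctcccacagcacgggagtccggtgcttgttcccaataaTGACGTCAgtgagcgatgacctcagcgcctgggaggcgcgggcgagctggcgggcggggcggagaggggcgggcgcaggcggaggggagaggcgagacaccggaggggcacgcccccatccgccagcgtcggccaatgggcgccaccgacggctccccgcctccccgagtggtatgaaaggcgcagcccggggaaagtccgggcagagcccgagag
The full palindrome TGACGTCA lay in the Dusp1 promoter with its first base at position -143 from the start of the gene, and in the Btg2 promoter at position -166. It was found in 2 of the 8 member promoters and in 1.79% of the 32851 promoters of the table, with both strands searched. The core TGACG, which the palindrome contains once on each strand, was in 6 of the 8 (all but Jun and Zfp36) and in 20.8% of all promoters. A TATAAA motif was in 2 members, Fos (first base at position -33) and Junb (first base at position 1, at the annotated start), against 13.6% of all promoters. The CArG box, the letters bound by serum response factor, was in 1 member window, that of Zfp36, against 1.63%. Sequence farther upstream was not searched, and Egr1 and Ier2 had no window. CCAAT was in 4 (37.4% of all), GGGCGG in 7 (35.7%), and TGANTCA, the AP-1 site, in none of the 8 (7.81% of all). A match is a description of letters in these windows and no measurement of binding.

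Values below are log2 of the quantile normalized intensity of a probe set, with a floor at the 30th percentile of all values, 4.75. With limma, each strain with 2 arrays was compared with the average of the remaining 3, and p-values were adjusted by Benjamini-Hochberg over all 9899 probe sets at a threshold of 0.05. In bulk tissue, fewer cells of a type and less RNA per cell cannot be told apart. Luminal and milk genes were high on every strain array, with Krt8 between 10.81 and 11.38 and a mean of 10.03 to 10.46 over the 9 tested mammary epithelial markers of 11 on the array, whereas the basal keratins Krt14 and Krt5 were at the floor on all 9. The arrays MOLF A and NZB B stood apart. Their correlation was 0.927, neither exceeded 0.868 with any of the remaining strain arrays, and those 7 reached at least 0.931 among themselves. The differences that rest most on these arrays are also given without them. The 3′ to 5′ log2 ratio of the actin control probe sets was 0.22 to 0.28 on FVBn B and both ILn arrays and 0.60 to 1.12 on the other 6.

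No member passed the limma test in any comparison, and no strain was highest or lowest for all of them. Called members were 0 of 10 in the F test over ILn, LP, MOLF and NZB, in which 0.748% of all probe sets passed. They were also 0 of 10 for ILn (0.404% of all probe sets passed), LP (0.313%), MOLF (0.414%), NZB (0.101%) and FVBn (0.313%). At an unadjusted limma p under 0.05 stood 2 of the 14 member probe sets in the F test, 4 for ILn, 1 for LP, 1 for MOLF, 3 for NZB and 0 for FVBn. The same threshold held 7.9%, 7.11%, 5.69%, 6.42%, 8.4% and 3.41% of all probe sets in that order. The smallest adjusted limma p of a member was 0.375, for Ier2 in ILn.

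**Figure D1:**
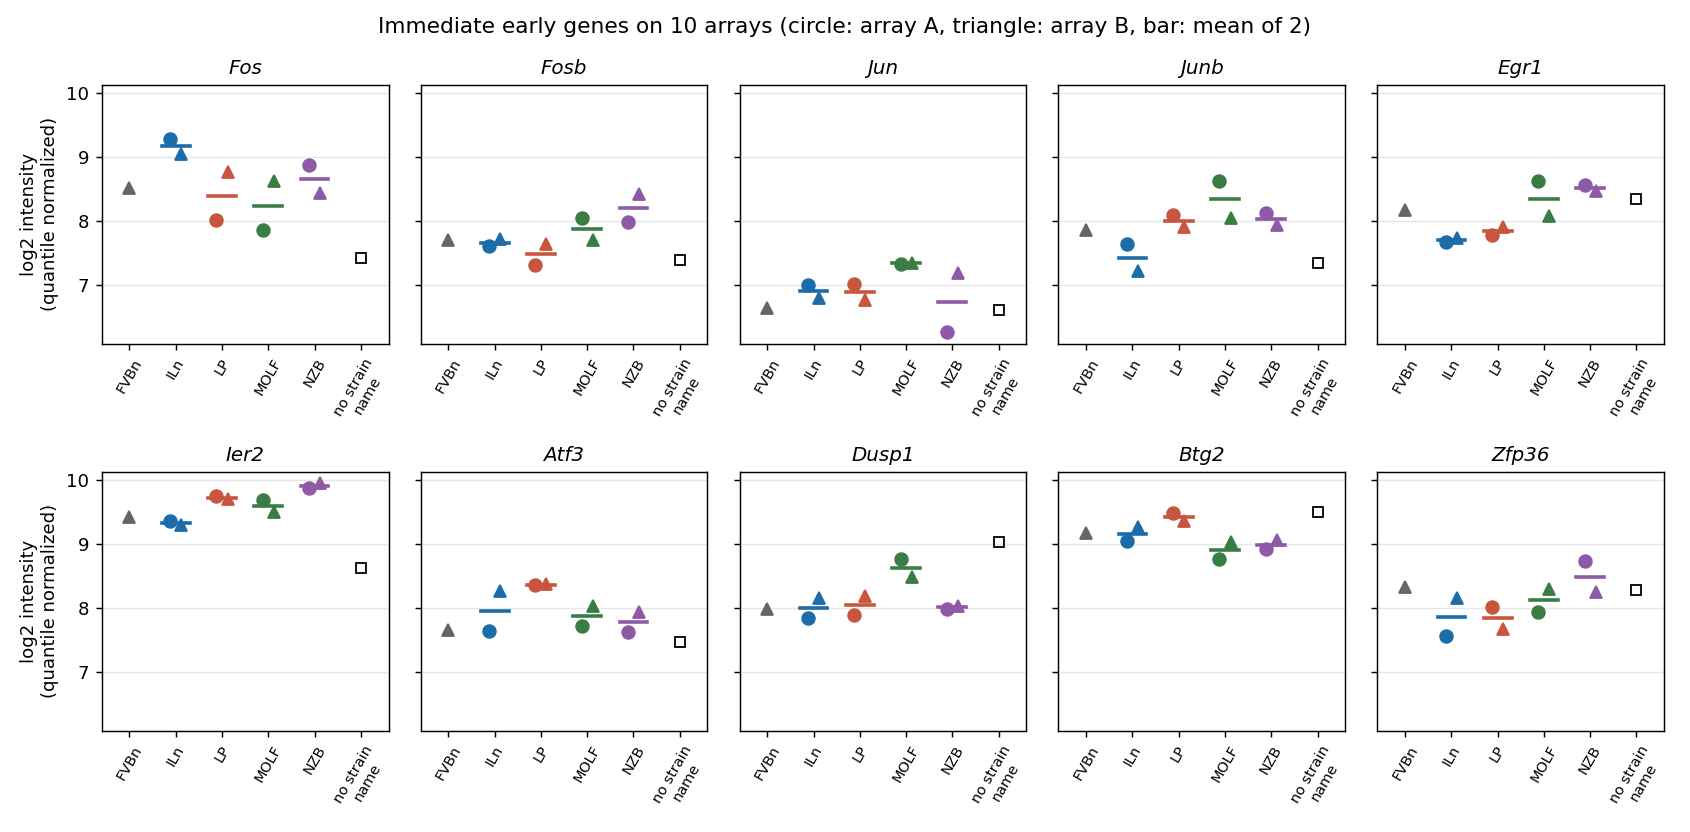
Log2 quantile normalized intensity (vertical axis) of the 10 genes, each by its brightest probe set, on the FVBn array, on arrays A (circles) and B (triangles) of 4 strains with the mean of both as a bar, and on the array with no strain name (squares). Fos was highest on the ILn arrays at 9.05 and 9.28, Dusp1 among the strain arrays on MOLF at 8.49 and 8.76, and Btg2 on LP at 9.35 and 9.47.

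The AP-1 subunits did not share an order of strains. Fos, the leucine zipper protein that pairs with a Jun protein to form AP-1, was measured by 160901_at at 9.28 on ILn A and 9.05 on ILn B. It read 8.01 and 8.76 on the LP arrays, 7.87 and 8.62 on MOLF, 8.88 and 8.44 on NZB, and 8.51 on FVBn B. Both ILn arrays lay above all 6 arrays of the other 3 strains and above FVBn B, while LP, MOLF and NZB overlapped. ILn averaged 9.17 ± 0.16 (SD, n = 2), and its difference from the other 3 strains was 0.74 ± 0.28 (SE) on the log2 scale, or 1.67-fold. The 95% interval ran from 0.08 to 1.39 and the limma adjusted p was 0.620. Among the arrays that share FVBn B's title date, 1 for each strain name, the ILn difference was 0.30, and with the title date as a block it was 0.52. Between the arrays ILn A and NZB B, which share another title date, it was 0.84, against 0.17 on the first date. The mean of the 7 fibroblast and matrix markers was highest on the same ILn arrays, 0.63 and 0.61 above its average. Col1a2, 1 of them, went the other way on ILn A, at 9.07, its lowest strain array. The mean of the 3 tested erythroid markers was also highest there, 1.24 above its average on each. It was at 0.51 on FVBn B and at -0.92 to -0.06 on LP, MOLF and NZB. Of these markers, Alas2 read 6.36 on MOLF B, against 6.18 on ILn A and 6.38 on ILn B. The mean of 7 macrophage markers was highest on ILn A, at 0.38. The part of these markers in the ILn values of Fos, Junb, Egr1 and Ier2 was not tested. The second Fos probe set, 161716_at, was dim, at 4.77 to 5.34 against a floor of 4.75, and separated no strain.

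Fosb, a Fos relative that also pairs with Jun proteins, stood at 7.98 on NZB A and 8.43 on NZB B. The other arrays read 7.61 and 7.72 for ILn, 7.32 and 7.65 for LP, 8.04 and 7.71 for MOLF, and 7.70 for FVBn B. NZB B was the highest array, and NZB A was below MOLF A, so the groups overlapped. NZB differed by 0.53 ± 0.22 (SE), with a 95% interval of 0.02 to 1.04 and a limma adjusted p of 0.580. It was 0.29 among the arrays of FVBn B's title date and 0.38 without MOLF A and NZB B. Leaving out NZB B alone brought it to 0.32.

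Jun, the AP-1 partner of the Fos proteins and target of the JNK kinases, was 7.33 on MOLF A and 7.35 on MOLF B. It was 7.01 and 6.81 on ILn, 7.02 and 6.77 on LP, 6.27 and 7.20 on NZB, and 6.65 on FVBn B. Both MOLF arrays lay above every other strain array, and the NZB arrays were 0.92 apart with NZB A lowest of all. The MOLF difference was 0.49 ± 0.31 (SE), with an interval of -0.24 to 1.23 and a limma adjusted p of 0.896, and it was 0.73 among the arrays of FVBn B's title date and 0.69 without MOLF A and NZB B.

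Junb, the Jun relative that can restrain Jun in AP-1, was measured by a pair of probe sets that moved apart. The probe set 102363_r_at, whose suffix marks probes chosen under relaxed rules, was 7.64 and 7.22 on ILn and 7.86 on FVBn B. It read 8.09 and 7.91 on LP, 8.62 and 8.06 on MOLF, and 8.13 and 7.94 on NZB. Both ILn arrays lay below all 6 arrays of the other 3 strains. The ILn difference was -0.70 ± 0.22 (SE), with an interval of -1.23 to -0.17 and a limma adjusted p of 0.487, and it was -0.82 among the arrays of FVBn B's title date. The probe set 102362_i_at, built from fewer probe pairs, gave 7.97 and 7.36 on ILn, 7.59 and 7.47 on LP, 5.01 and 7.17 on MOLF, 7.29 and 5.51 on NZB, and 7.05 on FVBn B. Its ILn difference had the other sign, 0.99 ± 0.66 (SE), with an interval of -0.55 to 2.53 and a limma adjusted p of 0.812. Its lowest arrays were MOLF A and NZB B, the arrays that stood apart, and its MOLF difference of -1.11 was -0.34 without them and -0.03 without MOLF A alone. Over the 9 strain arrays the Junb probe sets correlated at -0.58, so no direction is given for the gene.

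**Figure D2:**
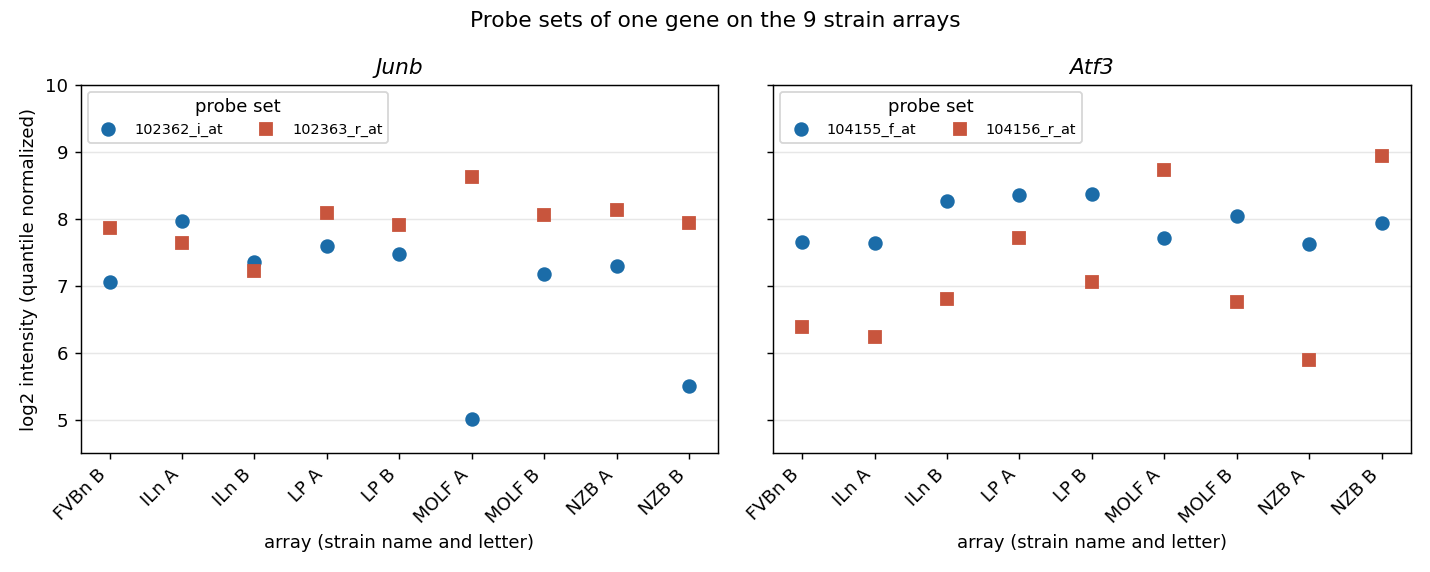
Log2 quantile normalized intensity (vertical axis) of both Junb probe sets and of the 2 tested Atf3 probe sets, on the 9 strain arrays (horizontal axis). On MOLF A the Junb probe sets read 5.01 and 8.62, and on NZB A the Atf3 probe sets read 7.63 and 5.89.

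Egr1, a zinc finger transcription factor and direct target of serum response factor, was high on NZB and low on ILn. By 98579_at it was 8.57 and 8.47 on NZB, 8.62 and 8.07 on MOLF, 7.78 and 7.91 on LP, 7.67 and 7.74 on ILn, and 8.17 on FVBn B. Both ILn arrays lay below all other strain arrays, and all 4 arrays of ILn and LP lay below all 4 of MOLF and NZB. ILn differed from the other 3 strains by -0.53 ± 0.19 (SE), with an interval of -0.98 to -0.08 and a limma adjusted p of 0.589. NZB differed by 0.55 ± 0.19 (SE), with an interval from 0.10 upward that ended under 1 and a limma adjusted p of 0.520. ILn was below NZB by close amounts on both title dates they share, at -0.79 and -0.83. Without MOLF A and NZB B the NZB difference was 0.72 and that of ILn was -0.48. The other Egr1 probe set, 161802_i_at, was above the floor on 3 of 9 arrays and reached 5.15.

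Ier2, a nuclear protein of the same induction class, had arrays A and B of a strain at most 0.20 apart. It was 9.86 and 9.94 on NZB, 9.74 and 9.69 on LP, 9.69 and 9.49 on MOLF, 9.35 and 9.29 on ILn, and 9.42 on FVBn B. The order NZB, LP, MOLF, ILn had no overlap between neighbours, although LP B at 9.694 lay barely above MOLF A at 9.689. Ier2 was the 1 gene of the 10 for which all 4 strains separated, as they did for 1.38% of all tested probe sets. The means were 9.90 ± 0.05 (SD) for NZB, 9.72 ± 0.03 for LP, 9.59 ± 0.14 for MOLF and 9.32 ± 0.05 for ILn, n = 2 each. ILn differed by -0.42 ± 0.11 (SE), with an interval of -0.69 to -0.15 and a limma adjusted p of 0.375. NZB differed by 0.36 ± 0.11 (SE), with an interval of 0.09 to 0.63 and a limma adjusted p of 0.497. The order rests on the scaling: after median centring in place of quantile normalization the differences were -0.23 for ILn, 0.11 for NZB and 0.33 for LP, so LP was highest, and neither ILn nor NZB was clear of the others. Without MOLF A and NZB B, after quantile normalization, the NZB difference was 0.36 and that of ILn was -0.38. On each shared title date ILn was below NZB, by -0.59 and -0.58 after quantile normalization. The 3 lowest Ier2 arrays, both of ILn and FVBn B, also had the lowest 3′ to 5′ ratios of actin, and the part of that ratio in the result was not tested. The same 3 arrays carried the highest salivary gland signal, a mean over 6 of 6 markers that lay 3.41 to 3.56 above its average over the 9 arrays. Their mean over 7 fibroblast and matrix markers of 7 on the array lay 0.34 to 0.63 above its average, against -0.42 to -0.06 on the other 6. Col1a2, 1 of the 7, went the other way on ILn A, at 9.07, its lowest reading of the 9. The part of these lists in the result was not tested either. On FVBn B, a single array, the Fos value of 8.51 and the Egr1 value of 8.17 lay within the range of LP, MOLF and NZB. Its Junb value of 7.86 (102363_r_at) lay between the arrays of ILn and those of the other 3 strains.

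Atf3, a CREB family factor induced by stress, was 8.35 and 8.37 on LP by 104155_f_at. The same probe set was 7.65 and 8.26 on ILn, 7.72 and 8.04 on MOLF, 7.63 and 7.94 on NZB, and 7.66 on FVBn B. Both LP arrays lay above every other strain array, although ILn B came within a small step of them. LP differed by 0.49 ± 0.22 (SE), with an interval of -0.04 to 1.02 and a limma adjusted p of 0.903, and by 0.39 among the arrays of FVBn B's title date. The probe set 104156_r_at put MOLF A at 8.74 and NZB B at 8.94, above the LP arrays at 7.71 and 7.06. It read 6.76 on MOLF B, 5.89 on NZB A, 6.24 and 6.81 on ILn and 6.38 on FVBn B. It differed by 1.98 between the MOLF arrays and by -3.05 between NZB A and NZB B, and its correlation with 104155_f_at over the 9 arrays was 0.21. A further Atf3 probe set, 161645_r_at, was at the floor on every array and was not tested.

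The feedback genes went to different strains again. Dusp1, the phosphatase that switches off MAP kinases in the nucleus, was 8.76 on MOLF A and 8.49 on MOLF B. It was 7.84 and 8.16 on ILn, 7.90 and 8.19 on LP, 7.99 and 8.03 on NZB, and 7.98 on FVBn B. Both MOLF arrays lay above all other strain arrays, and the other strains overlapped. MOLF averaged 8.62 ± 0.19 (SD, n = 2) and differed by 0.60 ± 0.18 (SE), or 1.52-fold, with an interval of 0.18 to 1.03 and a limma adjusted p of 0.468. MOLF was above LP on both title dates they share: LP minus MOLF was -0.86 between the A arrays and -0.29 between the B arrays. The MOLF difference was 0.37 among the arrays of FVBn B's title date and 0.50 without MOLF A and NZB B. The mean of the skeletal muscle markers was low on the same MOLF arrays, at -1.46 and -1.60 from its average, and at -2.34 on FVBn B. The part of these markers in the result was not tested.

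Zfp36 encodes tristetraprolin, which binds AU-rich elements and speeds the decay of cytokine and immediate early mRNAs. It was 8.74 and 8.24 on NZB, 7.94 and 8.29 on MOLF, 7.56 and 8.15 on ILn, 8.02 and 7.67 on LP, and 8.33 on FVBn B. NZB A was highest, but NZB B lay below MOLF B and FVBn B. NZB differed by 0.55 ± 0.25 (SE), with an interval of -0.02 to 1.13 and a limma adjusted p of 0.604, by 0.70 among the arrays of FVBn B's title date, and by 0.78 without MOLF A and NZB B. Leaving out NZB A alone brought it to 0.30.

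Btg2, an antiproliferative p53 target that recruits the deadenylase machinery, was 9.47 and 9.35 on LP. It was 9.04 and 9.26 on ILn, 8.77 and 9.03 on MOLF, 8.91 and 9.06 on NZB, and 9.17 on FVBn B. Both LP arrays lay above every other strain array. LP averaged 9.41 ± 0.09 (SD, n = 2) and differed by 0.40 ± 0.14 (SE), or 1.32-fold, with an interval of 0.07 to 0.73 and a limma adjusted p of 0.738. Among the arrays of FVBn B's title date the LP difference was 0.28. LP was above MOLF by 0.71 between the A arrays and by 0.31 between the B arrays. All 6 skeletal muscle markers on the array were tested, and their mean was highest on the same LP arrays, 1.72 and 1.69 above its average, followed by NZB at 1.37 and 1.22. The mean of 3 adipocyte markers was also highest on LP, at 0.57 and 0.47, followed by ILn A at 0.26. Of these, Fabp4 was highest on MOLF A, at 7.44. The part of both lists in the Btg2 and Atf3 values was not tested. Dusp1 and Btg2, the members with TGACGTCA in the windows printed above, were highest in different strains. Their windows were printed for that separation, so it is no test of the motif, whose part in these values was not tested. The mean of Dusp1 was highest in MOLF, where that of Btg2 was lowest.

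**Figure D3:**
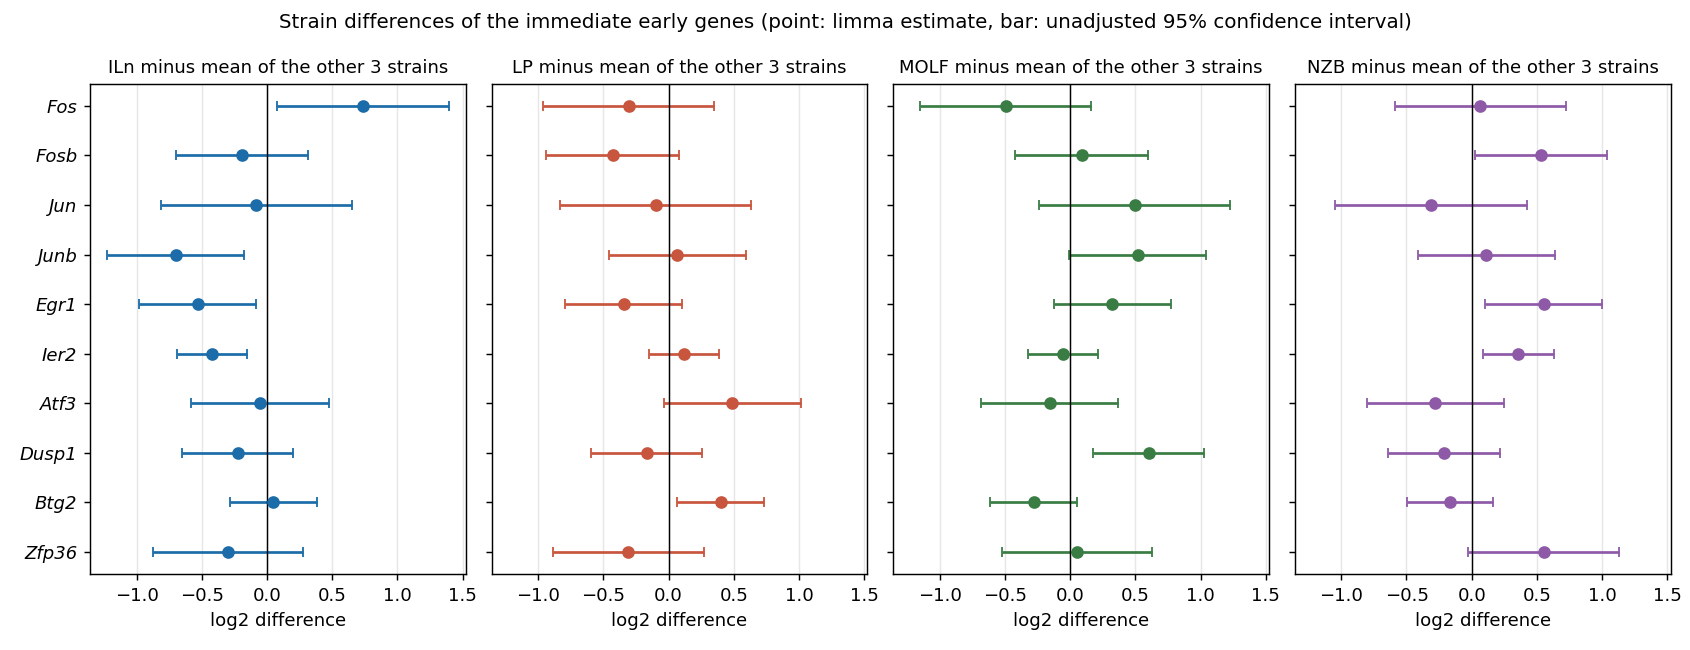
Log2 difference (horizontal axis) of each of 4 strains from the mean of the other 3, for the 10 genes by their brightest probe sets, as limma estimates with unadjusted 95% intervals. The ILn intervals lie above 0 for Fos and below 0 for Junb, Egr1 and Ier2, that of MOLF lies above 0 for Dusp1, that of LP for Btg2, and those of NZB for Fosb, Egr1 and Ier2, with no adjusted p under 0.375.

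Counted over the 14 tested member probe sets, separation of both arrays of a strain from the 6 arrays of the remaining strains was seen for 4 in ILn (1 above and 3 below), against 10.4% of all tested probe sets. They did so for 2 in LP, both above (7.01% of all), 2 in MOLF, both above (6.22%), and 1 in NZB, above (7.98%). These 9 cases were 8 after median centring, of which 7 were shared: both Ier2 cases were lost and Fosb in NZB was gained. FVBn B was beyond all 8 other strain arrays for 0 of 14, against 13.6% of all probe sets. Its differences from the other 4 strains all had a limma adjusted p of 0.999, with a median of -0.11 over the 14 against -0.02 over all probe sets.

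Strain means of the 10 genes, by the brightest probe set, were highest in NZB for 4 genes, in MOLF for 3, in LP for 2 and in ILn for 1. They were lowest in ILn for 4 genes and in each of the other 3 strains for 2. Junb entered by 102363_r_at, highest in MOLF and lowest in ILn, while 102362_i_at was highest in ILn and lowest in MOLF. With median centring, Ier2 was highest in LP and Dusp1 lowest in NZB, which gave 3 highest each to NZB, MOLF and LP and 3 lowest each to ILn and NZB. Of all tested probe sets, 25.5% were highest and 29.96% lowest in ILn, 24.1% and 20.7% in LP, 23.1% and 22.7% in MOLF, and 27.3% and 26.6% in NZB. Strains tied at the floor were counted for the first in the order ILn, LP, MOLF and NZB. The lowest share of ILn therefore includes every such tie that involves it. Of 30 gaps between neighbouring strains in these orders, 11 (36.7%) were free of overlap and 19 were not, against 19% of the gaps over all tested probe sets. These shares are not alike, since the 30 gaps are of the brightest probe sets and the 19% includes dim ones, where strains at the floor overlap. The mean level had a median of 7.95 over the 14 member probe sets and 6.89 over all. The median difference over the 14 probe sets was -0.14 for ILn (-0.02 over all probe sets), 0.01 for LP (-0.01), 0.03 for MOLF (0.01) and 0.03 for NZB (-0.0009). The range of the strain means had a median of 0.63 over the members and 0.58 over all probe sets.

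The 10 genes did not rise and fall as a block across arrays. Of the 45 pairs of genes, 21 had a positive Pearson correlation over the 9 arrays, with a median of -0.02, and over the 7 arrays without MOLF A and NZB B the median was -0.01. The highest was 0.79, for Atf3 with Btg2 (104155_f_at for Atf3), and the lowest -0.76, for Fos with Junb (102363_r_at for Junb). The other tested probe sets of Atf3 and Junb correlated with these at 0.21 and -0.58. Fosb with Egr1 stood at 0.79 and Egr1 with Btg2 at -0.72. These values describe arrays that share strain, title date and normalization. Averaged over the 10 genes by their brightest probe sets, the deviation of an array from the gene means ran from -0.17 on ILn A to 0.14 on NZB B.

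**Figure D4:**
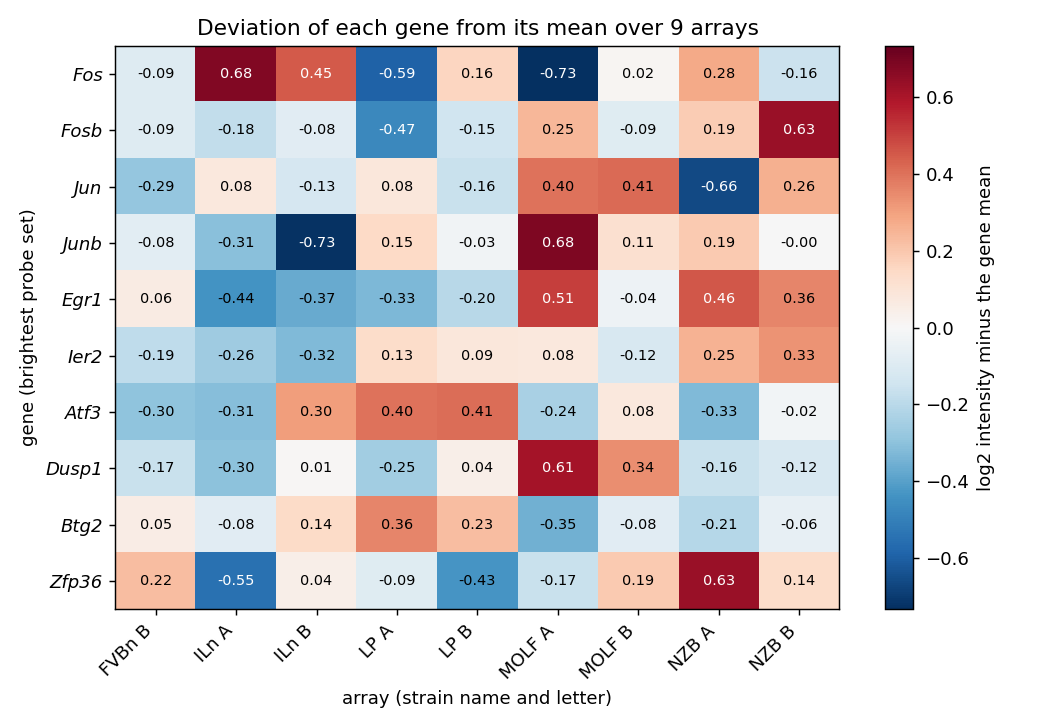
Deviation of log2 intensity (colour and printed value) of each of the 10 genes, by its brightest probe set, from its mean over the 9 strain arrays, with genes as rows and arrays as columns. ILn A is at 0.68 for Fos and at -0.55 for Zfp36, MOLF A at 0.61 for Dusp1 and at -0.73 for Fos, and no column has one sign for all 10 genes.

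Within a strain, arrays A and B of the members differed about as much as those of other probe sets. The median absolute difference was 0.22 over the members and 0.21 over all probe sets in ILn, and 0.23 and 0.24 in LP. It was 0.35 and 0.46 in MOLF, and 0.37 and 0.46 in NZB. Members more than 1 log2 unit apart numbered 2 in NZB, 2 in MOLF and 0 in ILn and LP, and in both NZB and MOLF they were Junb (102362_i_at) and Atf3 (104156_r_at). Of all probe sets, 21.8% were as far apart in NZB, 20.03% in MOLF, 2.24% in ILn and 4.65% in LP.

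The mean profile of the 10 was taken by averaging the tested probe sets of a gene and then the genes. Most like it, by Pearson correlation over the 9 strain arrays, were Mast2 at 0.98, Vcp at 0.97, Mageb3 at 0.95, Abhd17a at 0.94 and Cox4i1 at 0.94. Most like Fos alone were Cggbp1 at 0.97, Ist1 at 0.95 and Rab9 at 0.95. They were picked from all tested probe sets for these values, which are a description of 9 arrays.

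Other genes of the pathway gave no called member either. Of 56 further immediate early genes, 42 were tested and 0 passed the limma test in any of the 6 comparisons. The median difference of these 42 was 0.10 for ILn, 0.01 for LP, -0.02 for MOLF and -0.03 for NZB. Gadd45b, a stress sensor that activates MAP kinase cascades, was 9.10 and 7.52 on MOLF against 5.999 to 6.62 on the other 6 arrays of the 4 strains. Its MOLF difference was 2.06 ± 0.44 (SE), with a limma adjusted p of 0.212, and 1.43 without MOLF A and NZB B. Nr4a1, an orphan nuclear receptor of the immediate early class, went the other way, at 7.11 and 7.28 on MOLF against 7.78 to 8.09, with a difference of -0.73 ± 0.18 (SE) and a limma adjusted p of 0.323, and -0.64 without those arrays.

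Upstream signalling genes (17 of 26 tested), AP-1 and serum response factor targets (14 of 20) and heat shock genes (10 of 12) also had 0 members past the limma test in each comparison. Egfr, a receptor that feeds the ERK cascade, was 6.52 and 5.77 on NZB, the lowest of the strain arrays, with a difference of -0.88 ± 0.30 (SE) and a limma adjusted p of 0.513, and -0.49 without MOLF A and NZB B. Sos1, the exchange factor that loads Ras, was 4.92 and 5.22 on LP, a difference of -0.80 ± 0.29 (SE) with a limma adjusted p of 0.770. Ccnd1, the cyclin D1 gene induced downstream of AP-1, was 9.90 and 9.42 on MOLF, above all other strain arrays, with a difference of 0.64 ± 0.16 (SE) and a limma adjusted p of 0.367, and 0.37 without those arrays. Mt2, a metallothionein gene, was 10.91 and 10.62 on ILn, a difference of -0.39 ± 0.12 (SE) with a limma adjusted p of 0.462.

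Heat shock genes respond to warming and protein damage. Hsp90aa1, the inducible cytosolic HSP90, was 10.19 and 10.48 on NZB against 10.76 to 11.21 on the other 6 arrays of the 4 strains, a difference of -0.64 ± 0.12 (SE) with a limma adjusted p of 0.178. Hspa1a, the inducible HSP70, was 8.61 and 8.52 on NZB, above all other strain arrays, with a difference of 0.76 ± 0.21 (SE) and a limma adjusted p of 0.397. Hspa1a has a near-identical copy, Hspa1b, so which of them was measured is uncertain. Without MOLF A and NZB B the differences were -0.79 for Hsp90aa1 and 0.81 for Hspa1a, so these heat shock genes lay on opposite sides in NZB both ways.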

How the data were processed

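Each deposited value is the linear intensity of a probe set; the method by which the authors summarised probes is not given in the sources used. The deposited trimmed mean was 150.0 on every array but ILn A, at 499.9. In R 4.3.3 with limma 3.58.1, log2 intensity of the 9 strain arrays was quantile normalized, the array lacking a strain name was fitted to that distribution, and the 30th percentile (4.75 in log2) was set as a floor. Probe sets above this floor on at least 2 of the 9 arrays were tested with limma (lmFit, eBayes with an intensity trend, 1 mean for each of 5 strain names, 4 residual degrees of freedom), adjusted by Benjamini-Hochberg. FVBn, with 1 array, was given the spread of the others, and the number of arrays limits the precision. Symbols came from the platform annotation, updated through RefSeq's table of GRCm38.p6, which also gave the promoters; the files name no build, so no gene positions are given. All member probe sets are named. Of other lists, the 2 genes with the smallest F test p were named, as none passed, and of marker lists the mean for each array. A gene with several probe sets is given by the one with the highest mean where 1 value is needed; only for the mean profile were its tested probe sets averaged. The members, lists and alternatives were chosen with earlier results of these data known. The code was tested on simulated data.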

Additional observations from a re-analysis of the deposited data

Results flagged for a closer look

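The array whose title names no strain entered no comparison and has no control array, and 2 members lay on it above all 9 strain arrays. Dusp1 read 9.03 there, against a highest strain array of 8.76 (MOLF A). Btg2 read 9.50 there, against 9.47 on LP A, a gap smaller than that between the LP arrays at 9.47 and 9.35. These are single readings with no replicate, on a title date that no strain array shares, so sample and date cannot be told apart. No test was made.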

How the results depend on the processing

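Members called were 0 of 10 in each of the 6 comparisons under all 18 alternatives (17 for FVBn): median centring, no floor, no filter or a stricter one, title date as a block, no intensity trend, array weights, leaving out MOLF A with NZB B, and leaving out each array in turn. The replicate block on the array letter gave 0 as well; same-letter deviations correlated at -0.71 to 0.13, so the letters share only a number. The smallest member adjusted limma p was 0.130, for Ier2 in ILn with array weights. The count of all probe sets called ran from 14 to 122 in the F test (74 as reported), 5 to 92 for ILn (40), 0 to 54 for LP (31), 0 to 50 for MOLF (41), 0 to 35 for NZB (10) and 10 to 102 for FVBn (31). All 14 member differences followed kept their sign under every one of these alternatives. Their sizes moved most for Junb (102362_i_at) in MOLF, from -2.17 without MOLF B to -0.03 without MOLF A, and for Atf3 (104156_r_at) in ILn, from -1.49 without NZB A to -0.16 without MOLF A and NZB B. Ier2 in NZB was 0.11 with median centring, against 0.36 as reported. Of all 56 differences of the 14 probe sets in the 4 strains, 50 kept their sign with median centring. The values of list genes without MOLF A and NZB B were added after seeing the data. Causes of these shifts were not tested.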

Other observations

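On the array with no strain name, Fos at 7.43, Ier2 at 8.63 and Atf3 (104155_f_at) at 7.47 were below all 9 strain arrays, whose lowest values were 7.87, 9.29 and 7.63. Averaged over the 10 genes by their brightest probe sets, its deviation from their means over the strain arrays was -0.23, with 4 of the 10 above their means. The remaining genes lay within the range of the strain arrays, at 7.40 for Fosb, 6.62 for Jun, 7.34 for Junb (102363_r_at), 8.34 for Egr1 and 8.28 for Zfp36. This array correlated at 0.763 to 0.869 with the strain arrays and shares its title date with none of them.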
